A study of Mus musculus with 6 samples.

Results

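The choroid plexus genes described here are 8 genes of the secretory epithelium of the brain ventricles, namely Ttr, Folr1, Kl, Clic6, Otx2, Aqp1, Kcne2 and Slc4a5. They were picked by gene symbol from a table of 53801 genes. All 8 genes were found once each, and all 8 passed the minimum of 10 counts summed over the embryos that was asked of a gene before testing, as did 24739 genes in all. Polyadenylated RNA was measured by RNA-seq in 6 whole brains from C57BL/6 mouse embryos of stage E16.5. The 3 Bahd1-KO embryos were homozygous for a null allele of Bahd1 (Bahd1-/-), and the 3 Bahd1-WT embryos were wild type (Bahd1+/+). BAHD1 is a chromatin protein that takes part in gene repression, and the knockout was not limited to 1 cell type. The comparison asked whether transcript levels at this stage differed between the genotypes.

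The choroid plexus is a fold of epithelium over a core of blood vessels that hangs into each brain ventricle. Its cells secrete cerebrospinal fluid by moving sodium, chloride, bicarbonate and water from the blood to the ventricle, and they deliver carrier proteins, vitamins and hormones into that fluid. They arise from the dorsal midline of the neural tube in the telencephalon, the diencephalon and the hindbrain, and are joined by tight junctions that form a barrier between blood and fluid. The whole brain holds few such cells. In RNA from a whole brain, fewer choroid plexus cells and less RNA per cell cannot be told apart.

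The libraries held 61.7 to 91.8 (in 1e6) counts, and the 8 genes had between 79 and 67637 counts in an embryo. Bahd1 itself had 2, 10 and 6 counts in the knockout embryos (replicates 1, 2 and 3) and 1971, 3102 and 3470 counts in Bahd1-WT replicates 1, 2 and 3, which matches the labels (log2 fold change -8.40, SE 0.61, adjusted p 0.0462, edgeR). Bahd1-KO replicate 3 stood apart from the other 5 libraries. In this embryo Gm42418, a gene annotated over ribosomal RNA, took 22.6% of the counts and the mitochondrial ribosomal RNAs took 22.1%, against at most 0.394% and 0.279% elsewhere. Its summed level of 9 lung markers was 2384, against 0.763 to 13.5 in the other 5 embryos, and that of 8 neuronal markers was 2428, against 8112 to 10152. For these reasons the fold changes are given with and without this embryo. Levels are counts per 1e6 counts (CPM), scaled by TMM (trimmed mean of M-values), and, where 6 levels are listed, those of Bahd1-KO replicates 1, 2 and 3 come first.

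Ttr encodes transthyretin, the carrier of thyroxine and of retinol-binding protein that the choroid plexus secretes into the fluid. Its level was 238, 695 and 56.0 in the Bahd1-KO brains, against 291, 378 and 670 in the Bahd1-WT brains. Bahd1-KO replicate 3 was the lowest of the 6 and Bahd1-KO replicate 2 the highest, so the Bahd1-KO embryos spanned the whole Bahd1-WT range. The mean level was 330 ± 329 (SD, n = 3) in the Bahd1-KO embryos and 446 ± 198 (SD, n = 3) in Bahd1-WT.

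Folr1 and Kl encode membrane proteins that serve a vitamin and a hormone. Folr1 (GRCm38 chr7:101858331-101870788, minus strand) encodes folate receptor alpha, which carries folate across the epithelium into the fluid. Its level was 3.79, 7.55 and 1.46 in the Bahd1-KO brains, against 4.74, 5.14 and 7.91 in the Bahd1-WT brains. The order of the embryos was close to that of Ttr, with Bahd1-KO replicate 3 lowest and Bahd1-KO replicate 2 and Bahd1-WT replicate 3 highest. Kl (chr5:150952607-150993817, plus strand) encodes Klotho, a co-receptor for the hormone FGF23 that is also shed as a soluble protein. Its level was 2.30, 2.26 and 10.3 in the Bahd1-KO brains, against 3.07, 2.06 and 1.77 in the Bahd1-WT brains. Here Bahd1-KO replicate 3 was the highest embryo, and the 2 other Bahd1-KO embryos lay inside the Bahd1-WT range.

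Otx2 encodes a homeodomain transcription factor that is required for the choroid plexus to form and that midbrain, pineal and retinal cells also use. Its level was 27.7, 39.4 and 2.58 in the Bahd1-KO brains, against 36.2, 23.4 and 36.7 in the Bahd1-WT brains. Bahd1-KO replicate 3 was far below the other 5 embryos, whose levels differed at most 1.68-fold. Otx2 (GRCm38 chr14:48657677-48673819, minus strand) was the single one of the 8 genes whose annotated exons overlapped those of other genes. The antisense gene Otx2os1, with which it shared 154 bases, had 6 to 106 counts in an embryo against 139 to 3704 for Otx2. The counting was stranded, but how well it kept their reads apart was not tested. Gm49154 shared 168 bases with Otx2 on the same strand and had 1 to 5 counts in an embryo.

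Aqp1, Clic6, Kcne2 and Slc4a5 encode proteins that move water and ions. Aqp1 (chr6:55336432-55348555, plus strand) encodes the water channel aquaporin 1 of the membrane that faces the ventricle. Its level was 5.05, 11.8 and 49.4 in the Bahd1-KO brains, against 5.99, 8.36 and 9.69 in the Bahd1-WT brains, with Bahd1-KO replicate 3 far above the rest. Slc4a5 (chr6:83219828-83304945, plus strand) encodes a sodium bicarbonate cotransporter of the same membrane. Its level was 3.13, 7.21 and 19.1 in the Bahd1-KO brains, against 3.00, 3.50 and 4.66 in the Bahd1-WT brains, again highest in Bahd1-KO replicate 3. Clic6 (chr16:92485736-92541243, plus strand) belongs to the family of chloride intracellular channel proteins. Its level was 16.7, 23.2 and 38.9 in the Bahd1-KO brains, against 14.3, 14.0 and 18.9 in the Bahd1-WT brains, so that Bahd1-KO replicate 1 lay between the Bahd1-WT embryos. Kcne2 (chr16:92292389-92298129, plus strand) encodes an accessory subunit of potassium channels. Its level was 12.8, 18.1 and 3.34 in the Bahd1-KO brains, against 10.7, 8.63 and 13.7 in the Bahd1-WT brains, and Bahd1-KO replicate 3 was the lowest.

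**Figure D1:**
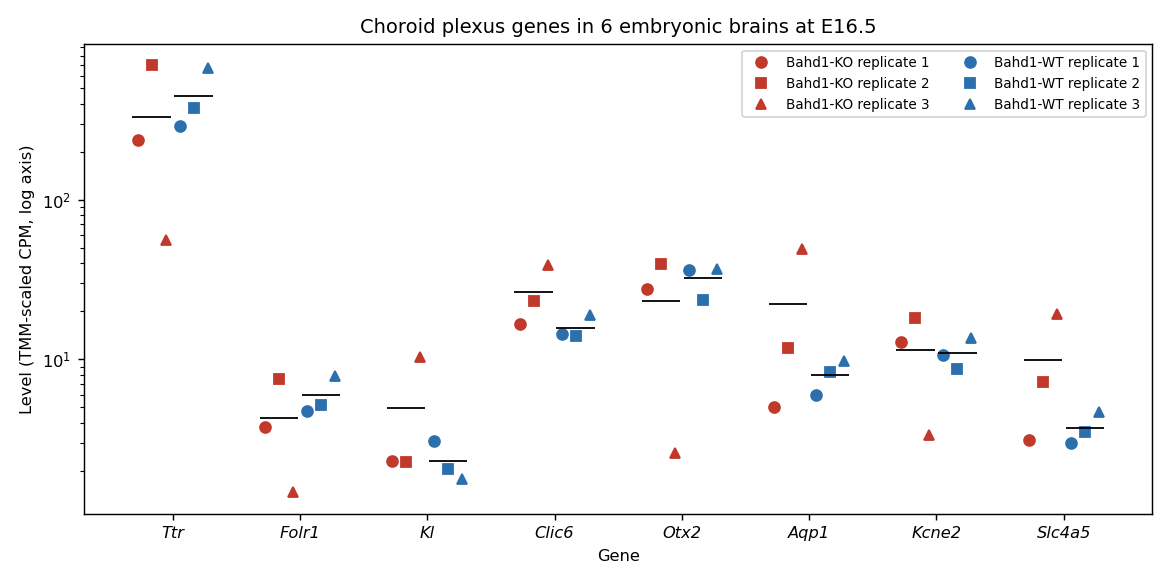
Level of each of the 8 genes (TMM-scaled CPM, log axis) in the 3 Bahd1-KO (red) and 3 Bahd1-WT (blue) embryos, with symbols for the replicate number and black lines for the mean of 3. The red triangle, Bahd1-KO replicate 3, is the lowest point for Ttr, Folr1, Otx2 and Kcne2 and the highest for Kl, Clic6, Aqp1 and Slc4a5.

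Promoter sequence was read for the genes that the RefSeq table of GRCm38.p6 held, which were Aqp1, Kcne2, Kl, Otx2 and Slc4a5, with 9 windows of 300 bases (250 before the start site and 50 from it on). The windows were searched on both strands for TAATCC, the core bound by OTX and other bicoid-type homeodomain proteins, which reads GGATTA on the opposite strand. It was present in 1 of 9 windows, against 7.06% of 32851 windows of all genes, and by gene in 1 of 5 against 8.14% of 27025 genes. Of 20 matched genes of a wider list of epithelium genes, 3 held it. The window that held the core belongs to Otx2 itself, 1 of 4 windows of that gene, and the core begins at position -211 from the start site. It is shown with the first windows of Kcne2 and Aqp1, which were low and high in Bahd1-KO replicate 3 and held no core. Each runs 5′ to 3′ on the strand of the gene, and capitals mark the core.
Otx2, chr14:48665060-48665359, minus strand: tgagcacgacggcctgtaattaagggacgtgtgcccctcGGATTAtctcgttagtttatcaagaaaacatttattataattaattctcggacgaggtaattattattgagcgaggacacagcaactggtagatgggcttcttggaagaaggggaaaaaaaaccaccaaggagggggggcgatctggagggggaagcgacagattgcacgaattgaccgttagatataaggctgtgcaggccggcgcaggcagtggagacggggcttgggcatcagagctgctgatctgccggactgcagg
Kcne2, chr16:92292139-92292438, plus strand: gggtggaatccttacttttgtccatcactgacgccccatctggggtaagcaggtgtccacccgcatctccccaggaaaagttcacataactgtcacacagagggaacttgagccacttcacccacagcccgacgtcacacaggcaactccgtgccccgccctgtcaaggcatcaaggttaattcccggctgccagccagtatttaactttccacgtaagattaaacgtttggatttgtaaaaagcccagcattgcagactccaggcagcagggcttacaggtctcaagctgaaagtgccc
Aqp1, chr6:55336049-55336348, plus strand: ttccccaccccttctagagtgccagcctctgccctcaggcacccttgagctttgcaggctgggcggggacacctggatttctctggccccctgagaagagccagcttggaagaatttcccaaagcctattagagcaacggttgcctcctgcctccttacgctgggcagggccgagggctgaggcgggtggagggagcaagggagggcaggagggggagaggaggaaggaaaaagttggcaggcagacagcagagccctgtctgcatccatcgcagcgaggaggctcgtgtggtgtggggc
A match of these letters is a description of the sequence and does not show binding.

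Levels can be compared between genes only per length. Per kb of merged annotated exons, the mean level in Bahd1-WT was 376 ± 167 (SD, n = 3) for Ttr, 7.60 ± 1.78 for Otx2, 6.22 ± 1.43 for Kcne2, 4.02 ± 0.702 for Clic6, 3.05 ± 0.715 for Aqp1, 2.58 ± 0.752 for Folr1, 0.641 ± 0.147 for Slc4a5 and 0.247 ± 0.0730 for Kl. Ttr stood far above all others, and Slc4a5 and Kl formed the low end. Otx2 and Kcne2 lay within 1 SD of each other, as did Aqp1 and Folr1, so their order is not settled. The choice of length matters for genes with long or alternative ends. Per kb of the longest annotated transcript, Otx2 was at 12.4 and Folr1 at 4.52, which placed Folr1 above Clic6 (4.19).

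The 8 genes gave no call between the genotypes. With all 6 embryos, 0 of 8 passed an adjusted p of 0.05 in edgeR, where 0.00404% of all genes did (Bahd1 alone). In the same fit 0 of 8 had an unadjusted p under 0.05, where 4.67% of all genes did. In 0 of 8 were all Bahd1-KO embryos on one side of all Bahd1-WT embryos, against 6.71% of all genes. DESeq2 also called 0 of 8 (0.0334% of all genes), and Slc4a5 alone had an unadjusted p under 0.05 there (5.28% of all genes). Voom with embryo quality weights called 0 of 8 (0.0243%), and 0 had an unadjusted p under 0.05 (8.95%). Of the genes, 5 of 8 had a log2 fold change above 0 (53.8% of all genes did), and the median over the 8 was 0.40, against 0.06 over all genes tested.

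The fold changes were wide in their error. The largest was that of Aqp1, at a log2 fold change of 1.46 (SE 0.78, 95% interval -0.37 to 3.29, adjusted p 0.696, edgeR). Slc4a5 followed at 1.40 (SE 0.64, interval -0.12 to 2.92, adjusted p 0.696), Kl at 1.10 (SE 0.67, interval -0.48 to 2.68) and Clic6 at 0.74 (SE 0.37, interval -0.12 to 1.60). Kcne2 was at 0.05 (interval -1.31 to 1.42). Folr1 at -0.47 (interval -1.87 to 0.93), Otx2 at -0.47 (interval -2.35 to 1.42) and Ttr at -0.44 (interval -2.32 to 1.45) were below 0. Every interval held 0, and those of Ttr, Kl, Otx2, Aqp1 and Slc4a5 were wide enough to take in a difference of more than 2 on the log2 scale.

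Without Bahd1-KO replicate 3 the same fit placed all 8 genes within 0.50 of 0 on the log2 scale. The largest was Kcne2 at 0.48 (SE 0.29, interval -0.20 to 1.17), then Slc4a5 at 0.47 (SE 0.40, interval -0.45 to 1.40) and Clic6 at 0.34 (SE 0.27, interval -0.28 to 0.95). Aqp1 fell from 1.46 to 0.07 (interval -0.86 to 1.00) and Kl from 1.10 to -0.03 (interval -0.77 to 0.72). Ttr was at 0.07 (interval -1.07 to 1.20), Otx2 at 0.06 (interval -0.61 to 0.72) and Folr1 at -0.07 (interval -0.96 to 0.83). The adjusted p-values were 0.981 to 0.995 (edgeR), so 0 of 8 were called (0.0171% of all genes). In the same fit 0 of 8 had an unadjusted p under 0.05 (1.48% of all genes), and 0 of 8 had genotypes that did not overlap (10.7%). The median of the 8 was 0.07, with 6 of 8 above 0 (49.2% of all genes). With 3 embryos against 2, these intervals still leave room for a difference of 1 on the log2 scale for Ttr, Kcne2, Slc4a5 and Aqp1.

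**Figure D2:**
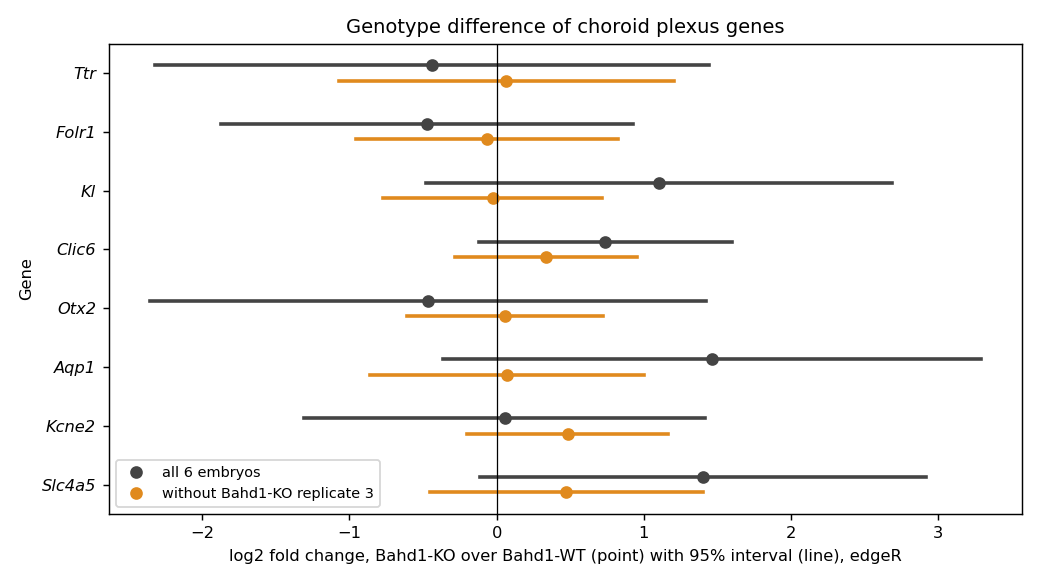
log2 fold change of each gene between Bahd1-KO and Bahd1-WT from edgeR (point) with its 95% interval (line), for all 6 embryos (grey) and without Bahd1-KO replicate 3 (orange). All 16 intervals cross 0, and the orange points lie between -0.07 and 0.48.

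Bahd1-KO replicate 3 lay outside the range of the other 5 embryos for each of the 8 genes, and in opposite directions. It was lowest for 4 of 8 genes (36% of all genes were lowest in this embryo) and highest for 4 of 8 (38.1%). Most genes tested were thus at one end or the other in this embryo, and lying outside the range is not particular to the 8. Otx2 was 12.7-fold lower than the mean of the other 5 embryos, Ttr 8.11-fold lower, Folr1 3.98-fold lower and Kcne2 3.83-fold lower. Aqp1 was at 6.05 times that mean, Kl at 4.47 times, Slc4a5 at 4.45 times and Clic6 at 2.23 times. A thyroxine carrier, a folate receptor, a transcription factor and a channel subunit were thus low in this brain, while a water channel, a bicarbonate cotransporter, Klotho and a chloride channel protein were high. The same 4 genes were highest and the same 4 lowest when counts were scaled to all counts or to protein-coding counts. Scaled to all counts, Clic6 was nearly tied, at 26.6 CPM in this embryo and 25.6 in Bahd1-KO replicate 2. Among genes with a mean of at least 1 CPM and a count in each of the 5 other embryos, 8.38% were over 4 times that mean and 8.42% under 0.25 of it.

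The summed level of the 8 genes rested mostly on Ttr. The sum was 309, 804 and 181 in the Bahd1-KO brains, against 369, 443 and 763 in the Bahd1-WT brains. Ttr made up 76.9% to 87.8% of it in 5 embryos and 30.9% in Bahd1-KO replicate 3. Without Ttr the sums were 71.5, 110 and 125 in the Bahd1-KO brains, against 78.0, 65.1 and 93.3 in the Bahd1-WT brains, with Bahd1-KO replicate 3 now the highest. A sum over these genes therefore ranked this embryo lowest or highest depending on 1 gene. All 8 genes together took 0.0124% of the counts in this embryo and 0.0328% to 0.0888% in the others.

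Among the other 5 embryos each of the 8 genes varied by more than the median gene. The highest embryo exceeded the lowest 2.92-fold for Ttr, 2.41-fold for Slc4a5, 2.33-fold for Aqp1, 2.10-fold for Kcne2 and 2.09-fold for Folr1, and 1.66-fold to 1.73-fold for Clic6, Otx2 and Kl. The median over the 8 was 2.09-fold, against 1.60-fold over the 14778 genes with a mean of at least 1 CPM and a count in each of these embryos (interquartile range 1.36 to 2.003). Bahd1-KO replicate 2 was the highest of the 5 for 6 of 8 genes, where it was highest for 12.5% of all genes. The exceptions were Folr1, highest in Bahd1-WT replicate 3, and Kl, highest in Bahd1-WT replicate 1. Bahd1-KO replicate 1 and Bahd1-WT replicate 2 were each lowest for 3 of 8 genes (30.4% and 19.4% of all genes).

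The ratio of 2 levels within an embryo does not depend on the scaling of its library. Over the 28 pairs of genes, the SD of the log2 ratio had a median of 0.38 in the 5 embryos and of 1.51 in all 6. The steadiest pair in the 5 embryos was Clic6 to Kcne2, whose ratio stayed between 1.28 and 1.62, while it was 11.6 in Bahd1-KO replicate 3. The ratio of Folr1 to Aqp1 stayed between 0.615 and 0.816 in the 5 embryos and was 0.0298 in Bahd1-KO replicate 3. The pair of Aqp1 and Slc4a5 behaved otherwise. Their ratio was 1.61 to 2.38 in the 5 embryos and 2.58 in Bahd1-KO replicate 3, the smallest spread of any pair over all 6 embryos (SD of the log2 ratio 0.28). Ttr to Folr1 ran from 61.2 to 91.9 and was 38.0 in Bahd1-KO replicate 3, and Folr1 to Kcne2 ran from 0.297 to 0.596 and was 0.440 there, inside that range. The widest ratio in the 5 embryos was Ttr to Kl, from 94.5 to 377.

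**Figure D3:**
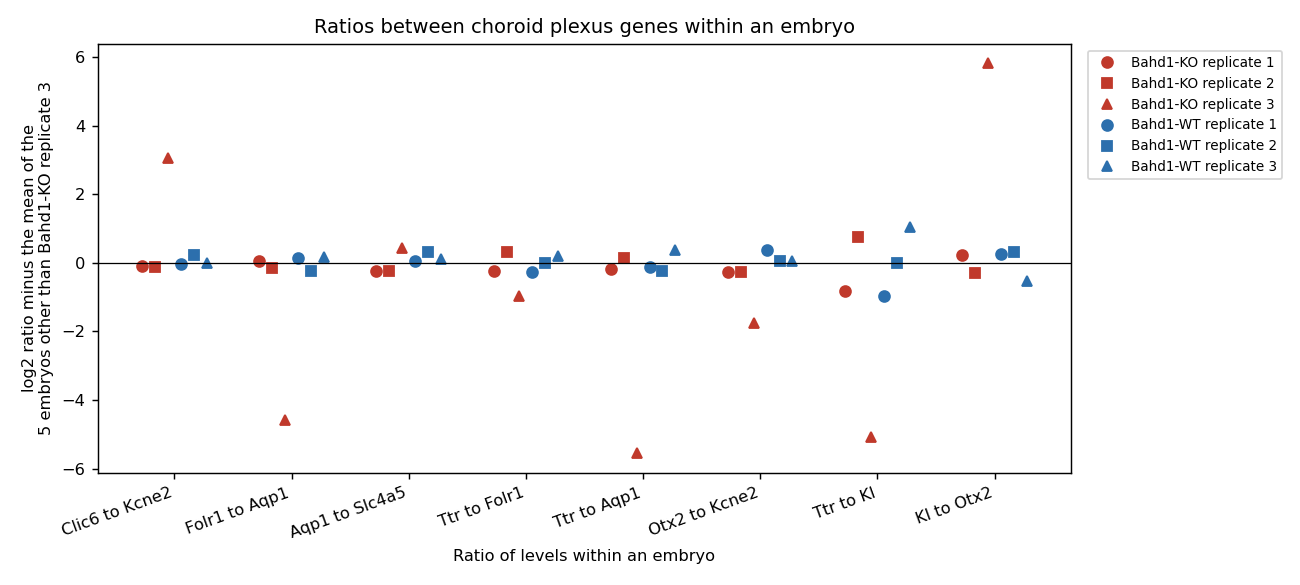
log2 ratio of 2 levels within an embryo for 8 of the 28 pairs, each minus its mean over the 5 embryos other than Bahd1-KO replicate 3, with Bahd1-KO in red and Bahd1-WT in blue. The 5 embryos stay near 0 for pairs such as Clic6 to Kcne2 (SD 0.13), and the red triangle lies off by more than 3 on the log2 scale for Clic6 to Kcne2, Folr1 to Aqp1, Ttr to Aqp1, Ttr to Kl and Kl to Otx2 but not for Aqp1 to Slc4a5 or Ttr to Folr1.

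Further genes of the epithelium were given by a list of 23, all of them tested. Of these, 0 of 23 were called and 1 of 23 had an unadjusted p under 0.05 (edgeR, 4.67% of all genes). In the Bahd1-KO embryos 14 were higher and 9 lower (53.8% of all genes were higher), with a median log2 fold change of 0.15. Without Bahd1-KO replicate 3 the median was 0.13, with 16 of 23 higher (49.2% of all genes). Again 1 of 23 had such a p (1.48% of all genes). Enpp2, a secreted enzyme that makes lysophosphatidic acid, had the highest mean level of the list, at 76.2, 80.1 and 229 in the Bahd1-KO brains, against 81.1, 60.4 and 61.0 in the Bahd1-WT brains. Igfbp2, which binds insulin-like growth factors, was at 25.9, 99.2 and 14.5 in the Bahd1-KO brains, against 38.0, 84.6 and 120 in the Bahd1-WT brains. Slc29a4, a monoamine transporter, had the lowest log2 fold change of the list (-0.98, and -0.46 without Bahd1-KO replicate 3) and was at 35.6, 68.1 and 4.10 in the Bahd1-KO brains, against 49.1, 89.9 and 73.85 in the Bahd1-WT brains. Igfbp2 and Slc29a4 followed Ttr in being low in Bahd1-KO replicate 3, while Enpp2 followed Aqp1. Krt8, a keratin of simple epithelia, had the largest log2 fold change (4.40, adjusted p 0.696, edgeR), which fell to 0.10 without that embryo, where its level was 27.2 against 0.261 to 0.703.

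Of this wider list, Bahd1-KO replicate 3 was highest for 10 of 23 genes (38.1% of all genes were highest there) and lowest for 9 of 23 (36% of all genes), and inside the range of the others for 4. Relative to the mean of the other 5, the levels ran from 0.0647 times (Slc29a4) to 59.7 times (Krt8), with a median of 0.894. In the other 5 embryos the median fold between highest and lowest was 1.80.

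**Figure D4:**
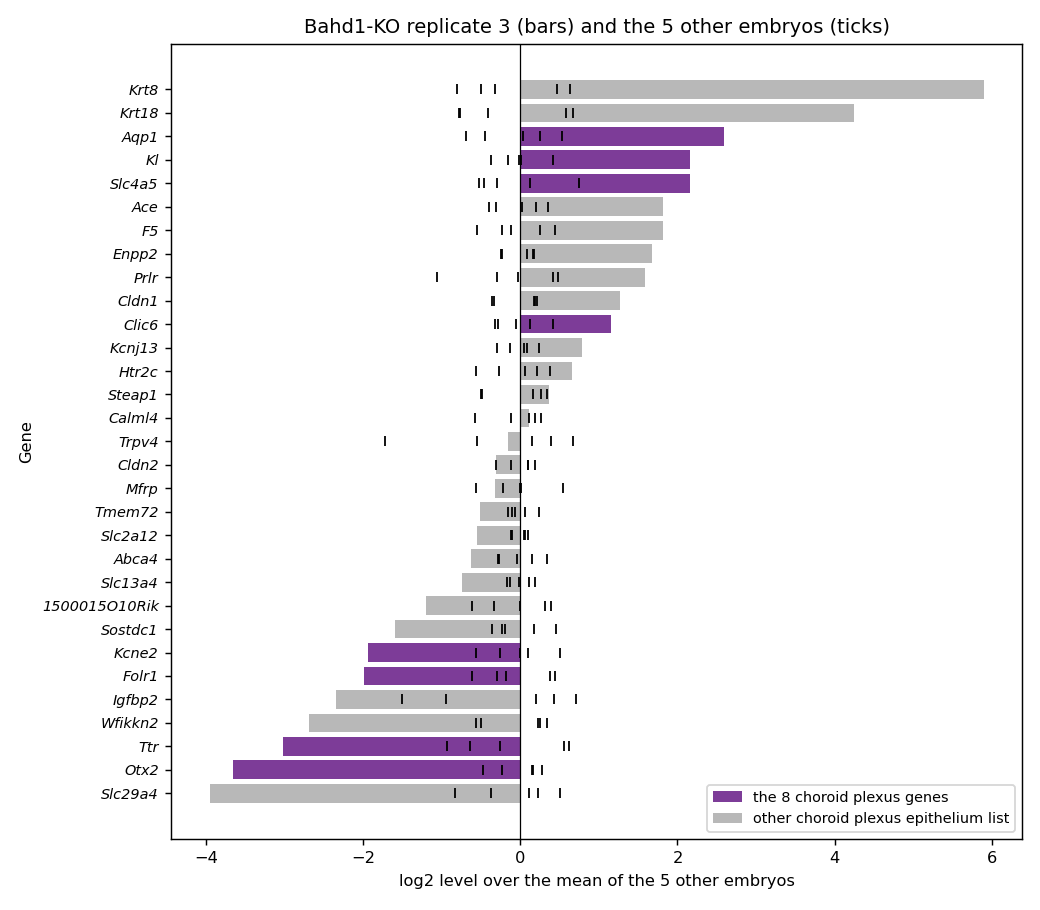
log2 of the level in Bahd1-KO replicate 3 over the mean of the 5 other embryos (bars) for the 8 choroid plexus genes (purple) and the 23 further genes of the epithelium (grey), with each of the 5 other embryos as a black tick. Bars run from Slc29a4 and Otx2 at the low end to Aqp1, Krt18 and Krt8 at the high end, and for each of the 8 purple bars the end lies beyond all 5 ticks.

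The ion and solute transporters listed with these genes do the bulk work of secretion but are shared with other cells. Of 15 tested, 0 were called and 0 had an unadjusted p under 0.05 (edgeR, 4.67% of all genes). Of the transporters 11 were higher and 4 lower (53.8% of all genes were higher), with a median log2 fold change of 0.20. Without Bahd1-KO replicate 3 the median was -0.02, with 6 higher (49.2% of all genes). Atp1b1, a subunit of the sodium-potassium pump, was at 783 in Bahd1-KO replicate 3 and at 224 to 409 in the other 5. Slc12a2, the sodium-potassium-chloride cotransporter, was at 368 there and at 67.0 to 115 in the others. Car2, a carbonic anhydrase that supplies bicarbonate, had the largest log2 fold change of the list, 2.43, which was -0.01 without that embryo. Its level was 145 in Bahd1-KO replicate 3 and 8.13 to 11.6 in the others. Slc22a8, an organic anion transporter, had the smallest (-0.42, and -0.03 without it), at 3.86 against 12.3 to 16.4.

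Paralogs of the 8 genes gave no call either. Of 21 tested, 0 were called and 3 of 21 had an unadjusted p under 0.05 (edgeR, 4.67% of all genes). Of the paralogs 13 were higher and 8 lower (53.8% of all genes were higher), with a median log2 fold change of 0.43. Without Bahd1-KO replicate 3 the median was 0.08, and 0 of 21 had such a p (1.48% of all genes). Clic5, a paralog of Clic6, was at 249 in Bahd1-KO replicate 3 and at 0.941 to 2.43 in the other 5, and had the largest log2 fold change of the list (5.71, adjusted p 0.696, edgeR, and 0.57 without that embryo). Clic4, the paralog with the highest mean level, was at 193 there and at 99.0 to 128 in the others. Among the bicarbonate transporters, Slc4a7 and Slc4a8 were at 41.2 and 49.9 there and at 71.7 to 131 and 77.4 to 118 in the others, opposite to Slc4a5. Slc4a3 had the smallest log2 fold change of the list (-0.76, and -0.43 without that embryo). Bahd1-KO replicate 3 was highest for 12 and lowest for 8 of the 21 paralogs (38.1% and 36% of all genes). Otx1 and Aqp4 lie outside the rule for naming genes and were chosen after their values were seen. Otx1 was at 0.945 in Bahd1-KO replicate 3 and at 9.88 to 16.6 in the others. Aqp4, the water channel of astrocytes, was at 126 there and at 6.69 to 37.4 in the others.

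Genes that work with the 8 in folate, Klotho and thyroid hormone pathways gave 0 of 15 called. Of these 0 had an unadjusted p under 0.05 (edgeR, 4.67% of all genes), and 8 were higher and 7 lower (53.8% of all genes were higher). The median log2 fold change was 0.00 (-0.20 without Bahd1-KO replicate 3). Slc19a1, the reduced folate carrier, had the smallest log2 fold change, -0.88 (-0.50 without that embryo). Its level was 5.42, 12.3 and 2.71 in the Bahd1-KO brains, against 7.05, 15.8 and 14.7 in the Bahd1-WT brains, lowest in Bahd1-KO replicate 3 as Folr1 was. Fgfr4, a receptor of fibroblast growth factors, had the largest at 2.36 (-0.24 without that embryo). Fgfr1 was at 43.7 and Fgfr2 at 290 in Bahd1-KO replicate 3, against 59.5 to 110 and 47.2 to 59.4 in the others. Thra, the thyroid hormone receptor alpha, was at 111 there and at 299 to 691 in the others.

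The dorsal midline and the cortical hem are the embryonic source of the epithelium and of its inducing signals. Of 14 such genes tested, 0 were called and 0 had an unadjusted p under 0.05 (edgeR, 4.67% of all genes). In this list 7 were higher and 7 lower (53.8% of all genes were higher), with a median log2 fold change of 0.03 (0.01 without Bahd1-KO replicate 3). Their summed level was 107 to 127 in the Bahd1-KO embryos and 93.3 to 110 in Bahd1-WT. Bmp4 had the largest log2 fold change (1.35, and -0.50 without that embryo) and Bmp7 the smallest (-0.83, and -0.49 without it), and both encode bone morphogenetic proteins. Wnt5a, Rspo3 and Bmp6 had the highest mean levels, with log2 fold changes of 0.75, -0.02 and -0.05 (0.25, 0.34 and 0.05 without that embryo). Multiciliated cells, which here include the choroid plexus epithelium and the ependyma, were given by 16 genes found in the table of 19 listed. In this list 0 were called and 2 of 16 had an unadjusted p under 0.05 (edgeR, 4.67% of all genes), with 13 higher and 3 lower. The median log2 fold change was 0.39. Without Bahd1-KO replicate 3 it was -0.17, and 1 of 16 had such a p (1.48% of all genes). Mcidas, a regulator of the multiciliated program, had the largest log2 fold change (2.42, and 0.27 without that embryo), and Ccdc40, a cilium assembly factor, the smallest (-0.56, and -0.45 without it). Its partner Ccdc39 had a log2 fold change of 0.34 (0.36 without that embryo). Rfx3, a ciliary transcription factor, had the highest mean level and a log2 fold change of 0.01 (0.24 without that embryo).

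Marker genes of brain regions also differed between the embryos. The summed level of the hindbrain Hox genes, of which 11 were tested, was 0.0916, 10.4 and 107 in the Bahd1-KO brains, against 2.24, 0.352 and 1.59 in the Bahd1-WT brains. All 11 were higher in Bahd1-KO, 0 were called and 6 had an unadjusted p under 0.05 (edgeR, 4.67% of all genes). The median log2 fold change was 4.80. Without Bahd1-KO replicate 3 it was 2.06, and 2 of 11 had such a p (1.48% of all genes). The summed level of 7 midbrain genes was 18.9, 88.4 and 18.6 in the Bahd1-KO brains, against 84.3, 63.3 and 85.7 in the Bahd1-WT brains, with 0 called, 1 higher and 6 lower and a median of -0.99 (-0.50 without that embryo). Bahd1-KO replicates 1 and 3 had close midbrain sums, but the genes were not equally low in both. Their median log2 level relative to the other embryos was -1.46 in Bahd1-KO replicate 1 and -2.65 in Bahd1-KO replicate 3. Otx2 was at 27.7 in Bahd1-KO replicate 1 and at 2.58 in Bahd1-KO replicate 3. For 12 genes of the eye and the pineal gland, 10 of them tested, the sum was 5.21 in Bahd1-KO replicate 3 and 32.7 to 46.6 in the others. Most of that sum was Rlbp1, at 3.32 in Bahd1-KO replicate 3 and 26.0 to 40.7 in the others. Of the 10 genes 5 were lowest (36% of all genes) and 2 highest (38.1% of all genes) in Bahd1-KO replicate 3. Asmt of that list had no count in any embryo. The part that these regions play in the levels of the 8 genes was not tested.

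Some of the 8 genes are also known from other tissues, and lists for those tissues were read beside them. The liver, which makes transthyretin, gave a summed level of 2.21, 3.04 and 12.5 in the Bahd1-KO brains, against 1.34, 1.22 and 40.5 in the Bahd1-WT brains over 11 markers. It was highest in Bahd1-WT replicate 3, where Ttr was at 670. In Bahd1-KO replicate 2 Ttr was at 695 and the liver sum was 3.04. The kidney, a main site of Klotho, gave a sum of 1.02 in Bahd1-KO replicate 3, the embryo with the most Kl, and 1.96 to 2.46 in the others. Umod, Slc34a1 and Aqp2 of that list had no count there. Aquaporin 1 is also made by red blood cells and by endothelium outside the brain. The summed level of 9 red blood cell genes was 160, 593 and 423 in the Bahd1-KO brains, against 132, 355 and 502 in the Bahd1-WT brains. Of these genes 5 of 9 were highest in Bahd1-KO replicate 3, where 38.1% of all genes were highest. The sum of 9 endothelial genes was 812 in that embryo and 242 to 307 in the others, and 8 of 9 were highest there (38.1% of all genes were). The part that these tissues play in the levels of the 8 genes was not tested.

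Lists for further cell types moved in Bahd1-KO replicate 3 as well. Of all genes 38.1% were highest and 36% lowest in this embryo. All 9 lung genes and all 7 skeletal muscle genes were highest there, with muscle at a sum of 86.3 against 2.52 to 12.1 in the others. Of the 10 genes of meninges and stroma 7 were highest there, with a sum of 2204 against 385 to 560. Neuronal genes were lowest there for 5 of 8 and radial glia genes for 5 of 7, the latter with a sum of 826 against 1210 to 1475. The 8 placental genes had a sum of 15.6 in Bahd1-KO replicate 2 and of at most 0.178 in the others. edgeR called 0 genes of these lists, with or without Bahd1-KO replicate 3. Genes with an unadjusted p under 0.05 (edgeR, 4.67% of all genes) were 9 of 9 lung genes, 4 of 7 placental genes tested and 2 of 9 red blood cell genes. They were 0 of the liver, kidney, endothelial, meningeal, muscle, neuronal, radial glia and eye and pineal lists. Without Bahd1-KO replicate 3 (1.48% of all genes) they were 6 of 9 lung, 7 of 7 placental and 2 of 9 red blood cell genes. They were again 0 of the other lists named here. Their part in the levels of the 8 genes was not tested.

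**Figure D5:**
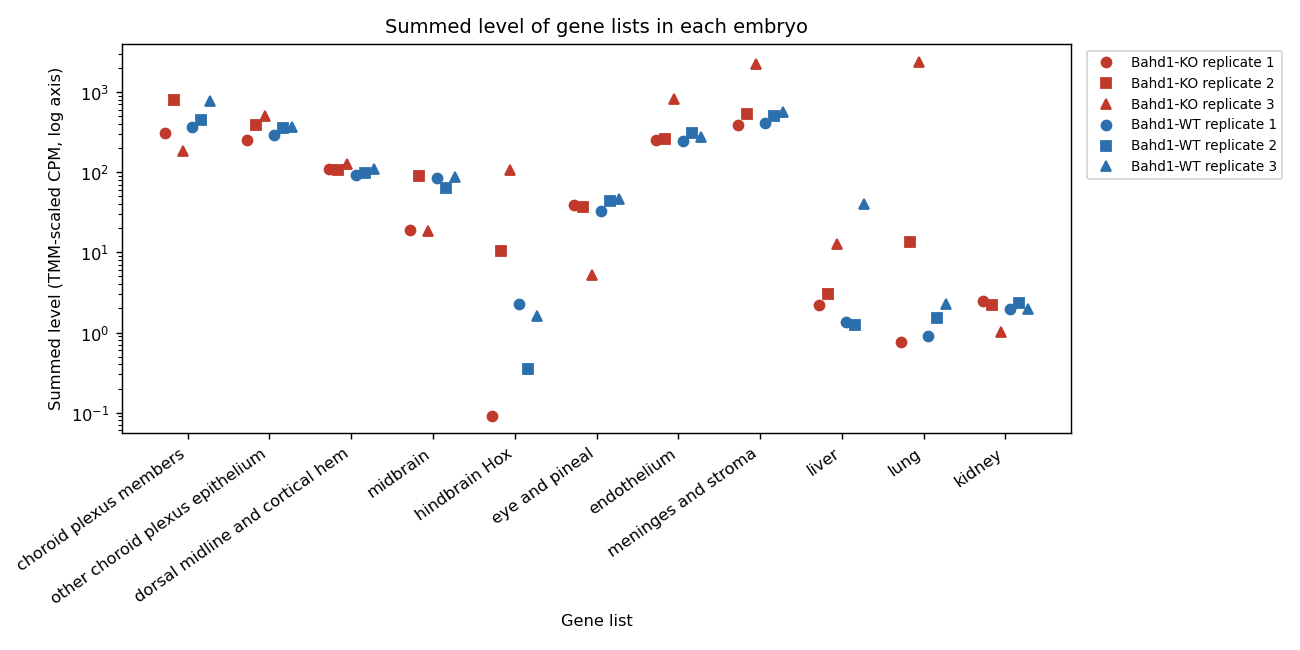
Summed level (TMM-scaled CPM, log axis) of 11 gene lists in each embryo, Bahd1-KO in red and Bahd1-WT in blue. The sum of the 8 choroid plexus genes is lowest in Bahd1-KO replicate 3 (181), where the lung sum is 2384, and the sums of the wider epithelium list (253 to 498) and of the dorsal midline list (93.3 to 127) vary less than 2-fold.

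The genes most like the 8 were sought by the SD, over the embryos, of the log2 level of a gene minus the mean log2 level of the 8, among 14817 other genes with a mean of at least 1 CPM. The mean log2 level was 3.44, 4.25 and 3.50 in the Bahd1-KO brains, against 3.58, 3.54 and 3.99 in the Bahd1-WT brains. Since the high and the low genes of Bahd1-KO replicate 3 cancel in it, that embryo does not stand apart in this mean. The 10 closest genes over 6 embryos included Sec61b, Sdhd, Rflna, Imp3, Cables1, Slc25a26, Morn2, Cox8a and Mrpl52, with SDs of 0.13 to 0.15, against a median of 0.55 over all candidates. Without Bahd1-KO replicate 3 they were Rps16, Sec61b, Prr32, Mettl7a1, Macrod1, Ndufa12, S100a6, Cycs, Bace2 and Nek2, with SDs of 0.09 to 0.13 against a median of 0.44. Of the 2 lists 1 of 10 genes was shared, and 0 of them were on the lists of the epithelium. The 10 genes were picked as the smallest SDs, so they are no yardstick for the 8. Each of the 8 genes was set against the mean of the other 7, with SDs of 0.69 (Clic6) to 1.59 (Otx2) over 6 embryos. All 8 were above the median of 0.55 over all candidates. Without Bahd1-KO replicate 3 these SDs were 0.18 (Clic6) to 0.59 (Kl), and only Kl and Ttr (0.46) were above the median of 0.44 over all candidates.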

How the data were processed

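RNA of whole brain was measured in 3 embryos of each genotype, with group and replicate number taken from the sample titles. The deposited table holds raw counts per gene, 1 column per embryo, which the authors made from stranded, poly(A)-selected libraries with featureCounts on GRCm38, as their notes give it (cutadapt 1.11, STAR 2.5.0a, featureCounts 1.4.6-p3). The study's text also names TopHat2, and which aligner made the table is not settled. The counts carry no normalization. Reads of near-identical genes may be split.

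The quasi-likelihood test of edgeR 4.0.16 (R 4.3.3) was run, two-sided, on genes whose counts summed to 10 or more, with TMM factors, genotype as the only term, Benjamini-Hochberg adjustment over all genes tested and a threshold of 0.05. The fit was tested on simulated counts, in which all embryos shared the same mean levels except for genes changed on purpose. No simulated library departed as Bahd1-KO replicate 3 does, so the fit was not tested for such a library. DESeq2 1.42.0 and limma 3.58.1 (voom) were alternatives, as were other filters, scalings, a replicate block and each embryo left out. Log2 levels used a prior count of 0.5. Exon lengths and positions came from GENCODE M21, and promoters from RefSeq (GRCm38.p6).

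The 8 genes and all lists were chosen with earlier results of these data known. The rule for naming genes took the 8 genes, Bahd1, any list gene past the threshold, of each list the 3 highest in mean level and the genes with the largest and smallest log2 fold change among those with a mean of at least 1 CPM, and the 10 genes most like the 8. Regional and tissue lists are given as sums instead. Some genes that the rule took are not reported here. Each embryo is a separate sample, and litters are not given in the sources used here. With 3 embryos against 3, precision is set by the spread between embryos.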

Additional observations from a re-analysis of the deposited data

How the results depend on the processing

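Of the 8 choroid plexus genes, 0 were called under any of the 18 alternatives and 4 to 7 of 8 had a log2 fold change above 0 (5 in the report). The median over the 8 ran from 0.06 to 0.56 (0.40 in the report), and the signs of Clic6 and Slc4a5 did not change under these alternatives. Without Bahd1-KO replicate 3 the signs of Ttr (0.066), Kl (-0.026) and Otx2 (0.057) turned, as they did in DESeq2 without it (0.054, -0.029 and 0.0496), and with 1 embryo left out the range was -1.64 to 0.066 for Ttr, -0.026 to 1.44 for Kl, -1.11 to 0.057 for Otx2 and -0.48 to 0.48 for Kcne2. Kcne2 turned without Bahd1-KO replicate 1 (-0.033), Bahd1-KO replicate 2 (-0.48) or Bahd1-WT replicate 2 (-0.10). With voom and embryo quality weights Otx2 was at 0.011 and Aqp1 at -0.080. The number of genes called over the whole table was 1 in the fit of the report, namely Bahd1. It was 0 with at least 10 counts in every embryo, a filter that Bahd1 fails (2, 10 and 6 counts in the Bahd1-KO embryos). It was 0 with protein-coding counts as library size, 8 with DESeq2, 6 with voom and 11 with DESeq2 without Bahd1-KO replicate 3. It was 0 to 4 with 1 embryo left out (4 without Bahd1-KO replicate 3). The median of the wider epithelium list, 0.15 in the fit of the report, was 0.25 with upper-quartile factors and -0.030 with total counts, where the median of all genes tested moved to 0.17 and -0.11, and ran from -0.023 to 0.25 with 1 embryo left out. Beyond the removal of Bahd1 by that filter, the cause of these changes was not tested.

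For embryos of the same replicate number, the r of their deviations was 0.08, 0.12 and -0.08 for numbers 1, 2 and 3. For the other pairs of a Bahd1-KO and a Bahd1-WT embryo it ran from -0.29 to 0.20. With so few embryos and no litters given, these values cannot settle whether the numbers pair the embryos. With the replicate number as a block, 0 genes were called and Kcne2 was at -0.18. With the block and without Bahd1-KO replicate 3, 16 genes were called (4 without the block), 0 of them among the 8. In that fit Ttr was at 0.28, Folr1 at 0.11, Kl at -0.16 and Otx2 at 0.17. Of the 10 genes most like the 8, 1 remained without Bahd1-KO replicate 3.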
